A study of Mus musculus with 6 samples.

Results

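The comparison described here is the step between postnatal days 10 and 14 in the optic nerve of wild-type mice, given over all probes as the day 14 level minus the day 10 level. It rests on 2 of the 6 arrays of the series, 1 for each age, chosen by their labels and not by any measured value. Whole nerves of male-labelled CD1 wild-type mice were pooled, 8 nerves at day 14 and 10 nerves at day 10. The other arrays held 4 pooled wild-type nerves at day 35 and nerves of male-labelled knockout mice (LIF-/-, on a CD1 background), which lack leukemia inhibitory factor, at the same 3 ages. Per the labels, nerves of either genotype received no treatment once dissected. RNA was extracted with TRIzol, and 500 ng per pool was amplified, labelled with biotin and hybridised to a MouseRef-8 BeadChip, a 1-colour array on which each probe is carried by many beads. Each age therefore had 1 array from 1 pool, which averages over the animals in it. No replicate gives the spread between pools, so every difference below is a value without a test, a standard error or a p-value.

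The optic nerve is a central white matter tract. It carries the axons of retinal ganglion cells, with oligodendrocytes that wrap them in myelin, astrocytes, microglia, vessels and a connective tissue sheath, and it contains no nerve cell bodies. In rodents its precursor cells divide after birth, leave the cell cycle, pass through a premyelinating stage and then produce the proteins and lipids of the sheath in bulk. The series asks whether the timing of that course depends on LIF, a cytokine related to interleukin 6, and the wild-type step is the normal course against which the knockout is read. Because whole nerves were measured, fewer cells of a type and less RNA per cell cannot be told apart.

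A probe was called detected where its detection p-value was below 0.05, and a difference was called where it reached 1 log2 unit, that is 2-fold. Of 24606 probes, 12222 were detected at day 14 and 12590 at day 10, with a median signal of 61.8 units of bead brightness at day 14 and 61 at day 10 and a mean signal of 280 at day 14 and 281 at day 10. The number of detected probes over all 6 arrays ran between 12222 and 13292. Both arrays of the step lay on 1 slide, as did both LIF-/- arrays of these ages, while the day 35 arrays lay on another slide. The myelin markers Mbp (20174.6 at day 14 and 18481.2 at day 10) and Mog (6780.8 at day 14 and 3073.2 at day 10) and the astrocyte marker Gfap (661.8 at day 14 and 958.5 at day 10) were detected at both ages. Signals compare 1 probe between ages and not probes with each other.

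Most of the measured transcripts lay close to equal at both ages. Of the 11677 probes detected on both arrays, 165 were higher at day 14 by at least 1 log2 unit (1.41%) and 161 were lower (1.38%), 2.79% in all. The middle 50% of probes lay between -0.21 and 0.22 log2 units, and the standard deviation over probes was 0.41. A gene name could be given to 7335 of these probes, which stand for 6199 genes, each represented by its brightest detected probe. Of these genes 101 were higher (1.63%) and 117 lower (1.89%), while 48.1% lay above 0 and 51.7% below it, and the counts of the gene groups below are to be read against these shares. A further 545 probes were detected at day 14 alone and 913 at day 10 alone, and for these a difference is given only as a bound.

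**Figure D1:**
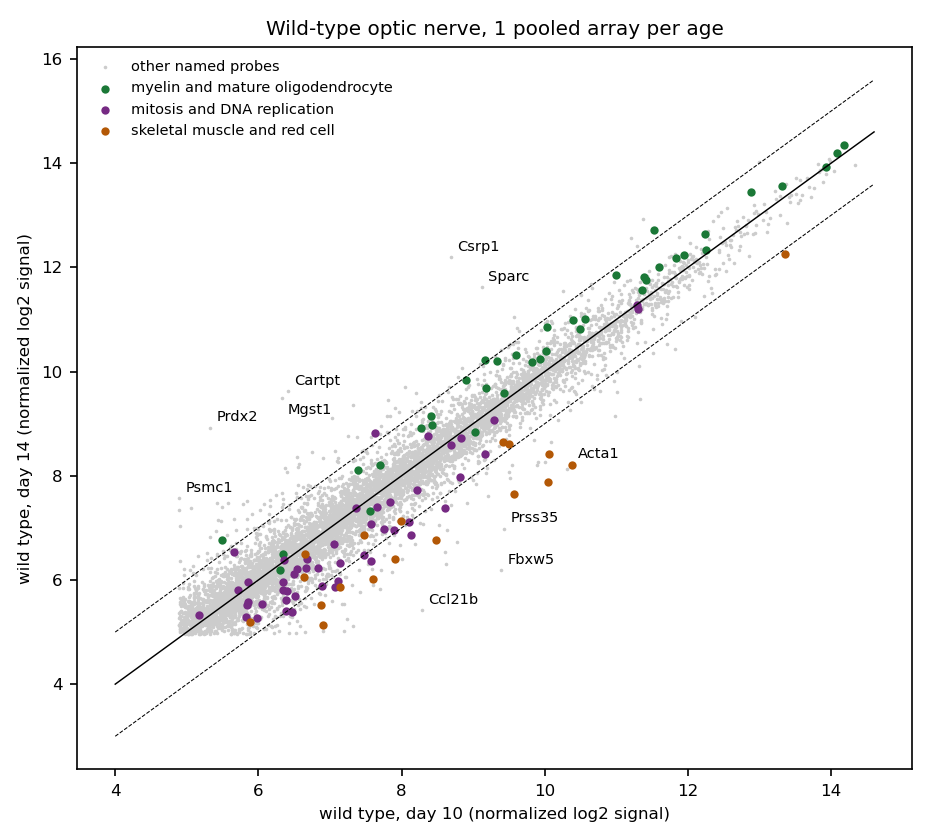
Normalized log2 signal at day 14 (vertical axis) against day 10 (horizontal axis) in wild-type nerves, 1 point per named probe detected at both ages, with the diagonal as a solid line and differences of 1 log2 unit as dashed lines. The myelin and mature oligodendrocyte genes (green) lie mostly just above the diagonal, most mitosis and DNA replication genes (purple) below it, and the skeletal muscle and red cell genes (brown) furthest below.

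The values of a single probe carry an error that can be gauged only where a gene has several probes. Over 956 genes with at least 2 detected probes, the differences of the brightest and the next brightest probe were correlated across genes with a Pearson coefficient of 0.52 and a Spearman coefficient of 0.43, as a description of probes that share both arrays. Of the 27 such genes whose brightest probe differed by at least 1 log2 unit, the second probe had the same sign in 22 and also reached 1 log2 unit in 11. The second probe's value stands beside several of the genes below.

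**Figure D2:**
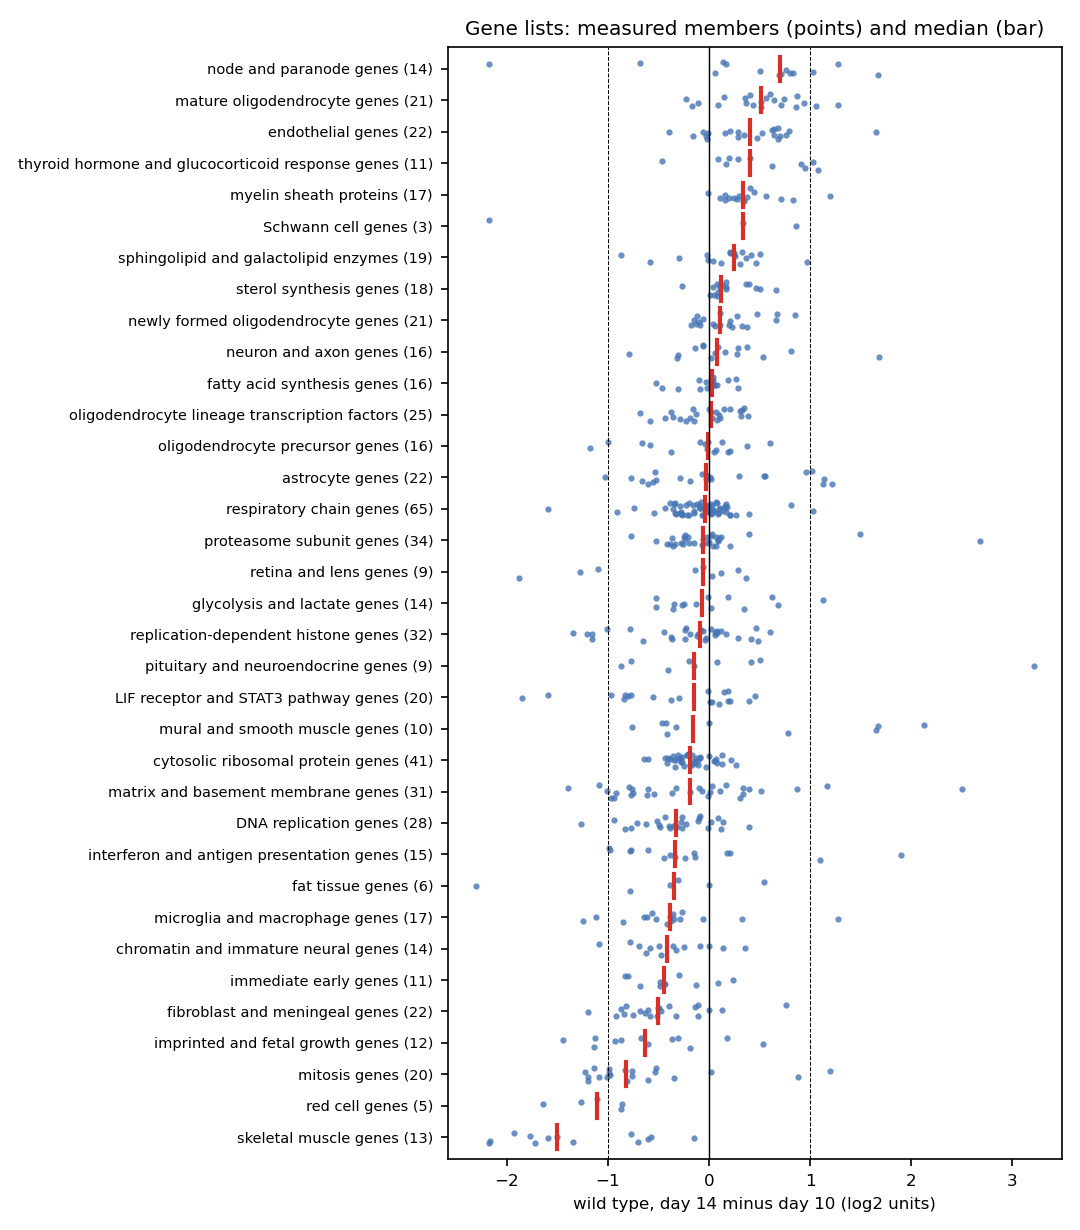
Difference of day 14 minus day 10 in wild-type nerves (log2 units, horizontal axis) for the members of 35 gene groups, with the number of members detected at both ages in brackets, 1 point per gene and a red bar at the median. Node and paranode genes (median 0.70) and mature oligodendrocyte genes (0.52) lie at the upper end, and mitosis genes (-0.82), red cell genes (-1.11) and skeletal muscle genes (-1.50) at the lower end.

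Genes of the myelin sheath lay above their day 10 level by small amounts. Of 17 measured members 16 lay above 0, with a median of 0.33, but only 1 reached 1 log2 unit, against a median of -0.01 and 48.1% above 0 over all 6199 genes. That gene was Mog, the myelin oligodendrocyte glycoprotein of the outer sheath surface, with a difference of 1.20 (2.30-fold) and of 1.35 on its second probe. Omg, a membrane-anchored myelin glycoprotein, had signals of 1973.1 at day 14 and 1108.8 at day 10, a difference of 0.83. Pllp, the tetraspan protein plasmolipin, had 1368.6 at day 14 against 838.1 at day 10, a difference of 0.72. Among the proteins of compact and noncompact myelin the differences were smaller. Mobp read 11341.8 at day 14 and 8105.1 at day 10 (difference 0.56), and Cnp, a nucleotide phosphodiesterase of noncompact myelin, read 2174.3 at day 14 against 1598.2 at day 10 (0.45). Opalin, a sialylated oligodendrocyte membrane protein, differed by 0.34 and Mal, a raft proteolipid, by 0.28. Cldn11, the tight junction claudin of myelin, had 16461.4 at day 14 and 16572.7 at day 10 and was the 1 member below 0, at -0.01. Mag, the periaxonal glycoprotein, differed by 0.15 and Mbp, the basic protein that compacts the sheath, by 0.10. The signals of Mbp and Mag lie at the top of the arrays' range, where quantile normalization sets values by rank, so their small differences say little about amount.

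Genes of mature oligodendrocytes differed somewhat more. Of 21 measured members 18 lay above 0, with a median of 0.52, and 2 reached 1 log2 unit. Hapln2, a link protein of the matrix around nodes, had a signal of 144.5 at day 14 and 76.1 at day 10, a difference of 1.28. Ppp1r14a, an inhibitor of myosin phosphatase, had 1279.3 at day 14 and 633.7 at day 10, a difference of 1.06 (1.03 on its second probe). Evi2a differed by 0.94, Adssl1, an enzyme of purine nucleotide metabolism, by 0.87 (0.58 on its second probe), and Gjb1, the gap junction protein connexin 32, by 0.65 (528.7 at day 14 against 348.7 at day 10). Trf, the iron carrier transferrin, had 3753.1 at day 14 and 2844.6 at day 10, a difference of 0.43, and reached 11706.6 at day 35. Klk6, a secreted protease of mature oligodendrocytes, was not higher at day 14: it had 105.4 at day 14 against 109.7 at day 10, with a difference of -0.11, and 2431 at day 35. Between day 14 and day 35, across slides, the median difference of the group was a further 0.62.

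The node of Ranvier is the gap between myelin segments where sodium channels gather, flanked by the paranode and, further out, by a zone of potassium channels. Genes of these zones had the highest median of the groups with at least 3 measured members, 0.70 over 14 measured members, with 12 above 0, 3 higher by at least 1 log2 unit and 1 lower. Cntnap2, the adhesion protein Caspr2 of the potassium channel zone, had 307.3 at day 14 against 115.5 at day 10, a difference of 1.67. Its partner Cntn2 had 1071.9 at day 14 against 627.4 at day 10, a difference of 0.80, and Kcna1, a potassium channel of the same zone, had 163.5 at day 14 against 93.9 at day 10, a difference of 1.03. Kcna2 differed by 0.69, and Epb41l3, a cytoskeletal linker of the paranode, by 0.71. Sptbn4, a spectrin of the node, was detected at day 14 alone. Gldn, gliomedin, known from Schwann cells of peripheral nerve, went the other way, with 64.1 at day 14 and 180 at day 10, a difference of -2.17. Omg and Hapln2 are members of this group as well as of the groups above.

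Earlier stages of the lineage lay near equal. Of 21 measured genes of newly formed oligodendrocytes 14 lay above 0 with a median of 0.11, and none reached 1 log2 unit in either direction. Enpp6, a choline phosphodiesterase that marks this stage, had 5357.7 at day 14 and 5718 at day 10 (difference -0.09). Gpr17, a receptor of the same stage, had 2802.9 at day 14 and 2683.6 at day 10 (0.11), and Bmp4, a secreted morphogen, had 1151.3 at day 14 against 1245.5 at day 10 (-0.13). The largest difference among them was that of Lims2, an adaptor at integrin adhesions, at 0.85 (1.01 on its second probe). The median difference of this group from day 14 to day 35 was -1.08, in which the slide cannot be told apart from age.

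Precursor genes were likewise near 0, with a median of -0.01 over 16 measured members, 7 of them above 0. Pdgfra, the growth factor receptor that defines the precursor, had 1495.3 at day 14 and 1282.2 at day 10 (difference 0.21), and Cspg4, the NG2 proteoglycan, had 149.7 at day 14 and 147.3 at day 10 (-0.01). Matn4, a matrix protein that precursors express, was lower, with 1575.7 at day 14 against 3427.3 at day 10, a difference of -1.18 (-0.96 on its second probe). Fabp7, a fatty acid binding protein of immature glia, was the other member past 1 log2 unit, at -1.0. Bcan, a brain proteoglycan, lay at 0.61. Transcription factors of the lineage had a median of 0.02 over 25 measured members, with 13 above 0 and none past 1 log2 unit. Olig1 read 15628.4 at day 14 and 15243.8 at day 10 (0.02), Sox10 read 2544.6 at day 14 and 2573.3 at day 10 (0.00), and Olig2 differed by 0.14. Nkx2-2, a factor of precursors and early differentiation, had 515.7 at day 14 against 671.3 at day 10 (-0.38), and Myt1, a zinc finger protein of precursors, lay lowest at -0.68.

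Myelin is rich in cholesterol and in galactolipids whose ceramide carries very long chains. Of 19 measured enzymes of sphingolipid and galactolipid metabolism 14 lay above 0, with a median of 0.24 and none past 1 log2 unit. Cers2, the ceramide synthase for very long chains, had 2963.7 at day 14 and 1555.1 at day 10, a difference of 0.97 (0.41 on its second probe). Elovl1, which lengthens those chains, differed by 0.51, Fa2h, which hydroxylates them, by 0.47 (4962.7 at day 14 against 3504.2 at day 10), and Ugt8a, which adds the galactose, by 0.21. St3gal5, which starts ganglioside synthesis, lay lowest at -0.88. For sterol synthesis 17 of 18 measured members lay above 0, but the median was only 0.12 and none reached 1 log2 unit. In the authors' scaled values the median of this group was -0.087, while that of the 8005 probes they cover was -0.20. The group thus lay above the other probes there too but not above 0. Mvd, a mevalonate pathway decarboxylase, differed by 0.66, Lss, lanosterol synthase, by 0.51, and Sqle, squalene epoxidase, by 0.47 (1.15 on its second probe). Hmgcs1, an early synthase of the pathway, had 18087.4 at day 14 and 17211.6 at day 10 (0.11), and Dhcr7, the last reductase, was the 1 member below 0, at -0.27. Fatty acid synthesis genes were spread about 0, with a median of 0.03 over 16 members, 9 of them above 0. Fasn, the synthase, differed by -0.02, and Scd1, a desaturase, lay lowest at -0.52.

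Genes of cell division lay mostly below 0. Of 20 measured mitosis genes 17 lay below 0, with a median of -0.82, and 6 were lower by at least 1 log2 unit, against 1.89% of all named genes. With an offset of 50, or without background correction, only 1 of the 20 was. Prc1, which bundles spindle microtubules in cytokinesis, had 205.2 at day 14 and 437.4 at day 10, a difference of -1.23. Tpx2, a spindle assembly factor, had 116 at day 14 against 225 at day 10 (-1.20), and Plk1, a mitotic kinase, had 90.6 at day 14 against 166 at day 10 (-1.19). Birc5, survivin of the chromosomal passenger complex, differed by -1.13, the kinase Aurka by -1.09, and Cdk1, the kinase that starts mitosis, by -1.01 (91 at day 14 against 151.1 at day 10). Top2a, the topoisomerase of dividing cells, had 83.4 at day 14 and 122.2 at day 10 (-0.83). Ccna2, cyclin A2, with Bub1b and Ube2c, both regulators of the anaphase complex, were detected at day 10 alone. Pttg1, securin (0.88), and Spag5, a spindle protein (497.7 at day 14 against 232.9 at day 10, a difference of 1.19), were higher.

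Genes of DNA replication were lower by less. Of 28 measured members 23 lay below 0, with a median of -0.33 and 1 past 1 log2 unit, and another 4, among them thymidine kinase Tk1 and ribonucleotide reductase Rrm2, were detected at day 10 alone. Mcm6, a subunit of the replicative helicase, had 151.7 at day 14 and 318.9 at day 10, a difference of -1.27 (-0.59 on its second probe). Mcm5 of the same helicase differed by -0.94, and Uhrf1, which guides maintenance methylation, by -0.84 (292.6 at day 14 against 500 at day 10). Pcna, the sliding clamp, had 465.1 at day 14 and 503.6 at day 10 (-0.11). Ccnd1, cyclin D1, differed by -0.01 on its brightest probe and by -0.45, -0.26 and -0.43 on its other detected probes.

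Promoters of some of these genes are shown because most members of both groups lay below 0 and their known control elements differ. Mitotic genes are classically regulated through the cell cycle homology region (CHR, letters TTTGAA) beside CCAAT boxes, and replication genes through E2F sites. The sequences are those of RefSeq on GRCm38.p6, written 5′ to 3′ along the gene, with 250 bases before the start site and 50 after it. Capitals mark CHR and CCAAT letters in the first 3 and E2F letters (TTTGGCGC) in the last. The first 3 are the lowest mitosis genes that held both CHR and CCAAT letters. The last is the lowest replication gene with E2F letters. Matches in the printed promoters were thus a condition of printing them. Birc5 (-1.13) held neither CHR nor CCAAT letters, and Spag5, which was higher (1.19), held both.

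Prc1, chr7:80294201-80294500, plus strand: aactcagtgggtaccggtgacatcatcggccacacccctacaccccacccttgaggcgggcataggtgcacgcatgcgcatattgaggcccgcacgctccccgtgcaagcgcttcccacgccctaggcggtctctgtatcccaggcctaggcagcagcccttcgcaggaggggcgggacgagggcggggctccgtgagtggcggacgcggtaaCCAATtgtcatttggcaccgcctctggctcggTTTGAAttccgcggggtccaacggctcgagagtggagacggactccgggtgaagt

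Plk1, chr7:122159185-122159484, plus strand: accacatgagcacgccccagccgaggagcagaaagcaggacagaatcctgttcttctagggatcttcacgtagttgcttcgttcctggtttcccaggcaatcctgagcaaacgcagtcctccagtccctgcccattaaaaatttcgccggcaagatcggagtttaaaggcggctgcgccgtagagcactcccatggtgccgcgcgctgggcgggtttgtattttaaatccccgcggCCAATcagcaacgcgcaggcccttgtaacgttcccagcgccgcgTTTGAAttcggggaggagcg

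Aurka, chr2:172370521-172370820, minus strand: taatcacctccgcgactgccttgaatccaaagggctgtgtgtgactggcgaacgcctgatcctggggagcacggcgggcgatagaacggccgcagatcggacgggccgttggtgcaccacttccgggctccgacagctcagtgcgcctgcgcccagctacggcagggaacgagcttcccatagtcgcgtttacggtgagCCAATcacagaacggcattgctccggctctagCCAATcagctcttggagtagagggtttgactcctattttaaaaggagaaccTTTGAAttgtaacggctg

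Mcm6, chr1:128359656-128359955, minus strand: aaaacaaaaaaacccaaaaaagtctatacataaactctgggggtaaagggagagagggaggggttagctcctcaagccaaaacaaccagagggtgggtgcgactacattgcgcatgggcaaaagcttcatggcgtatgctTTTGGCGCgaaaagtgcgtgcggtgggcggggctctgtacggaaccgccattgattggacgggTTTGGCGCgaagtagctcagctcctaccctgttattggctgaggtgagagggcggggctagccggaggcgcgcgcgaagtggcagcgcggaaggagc

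In Prc1 the CHR letters began 5 bases before the start site and the CCAAT letters 37 before it. In Plk1 the CCAAT letters began 14 bases before and the CHR letters at position 31 after it. In Aurka CCAAT began 51 and 19 bases before and CHR at position 33 after. In Mcm6 the E2F letters began 110 and 47 bases before the start site. Counting both strands, CHR letters were found in 13 of 17 promoters of the measured mitosis genes (76.5%, 16 genes), against 17.9% of 32851 promoters of the same length. CCAAT letters were also found in 13 of the 17 (76.5%), against 37.4% of all promoters. Of the 5 members lower by at least 1 log2 unit that had a promoter in the table, 4 held CHR letters and 4 held CCAAT letters, and of all 16 members 12 and 12. E2F letters (TTTCCCGC or TTTGGCGC) were found in 8 of 30 promoters of DNA replication genes (26.7%), in 0 of the 17 mitosis promoters and in 1.56% of all promoters. CHR letters were found in 10% and CCAAT letters in 46.7% of the replication promoters. In sterol synthesis genes, which differed by little, the sterol response letters TCACNCCAC were found in 1 of 19 promoters (5.26%, against 1.24% of all) and CCAAT in 14 of 19 (73.7%). A match says that these letters occur in the window and nothing about binding.

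Chromatin and immature neural genes went the same way as replication genes, with 11 of 14 measured members below 0 and a median of -0.42. Dek, a chromatin architectural protein, had 222.3 at day 14 and 436.6 at day 10 (difference -1.09). Dpysl3, a growth cone protein, differed by -0.79, Dcx, doublecortin of migrating immature neurons, by -0.49, and Sox11, a factor of immature neural cells, by -0.58. Stmn1 was the highest member, at 0.36. Genes of imprinted loci and fetal growth had a median of -0.64, with 10 of 12 below 0 and 3 lower by at least 1 log2 unit. Igfbp2, which binds insulin-like growth factors, had 440.9 at day 14 against 1156.8 at day 10 (-1.45). The growth factor Igf1 differed by -1.13 and the imprinted gene Mest by -1.14. Igf2, the fetal growth factor, had 17432.5 at day 14 and 22349.2 at day 10 (-0.37), which lies at the top of the arrays' range and says little about amount. Dlk1 differed by -0.87.

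Replication-dependent histone genes, whose transcripts accumulate in S phase, did not move as 1 group. Over 32 measured genes the median was -0.09, with 12 above 0, but all 5 that were lower by at least 1 log2 unit encoded H2A. The 9 H2A genes had a median of -1.01, with H2ac12 lowest at -1.34 and H2ac22, H2ac13, H2ac10 and H2ac23 at -1.20, -1.16, -1.15 and -1.01. The 12 H2B genes had a median of 0.10, the 4 H3 genes -0.12 and the 6 H4 genes -0.31. The same 5 H2A genes were lower by at least 1 log2 unit in LIF-/- nerves, where the medians were -1.01 for H2A, 0.84 for H2B, 0.14 for H3 and 1.25 for H4. Genes of 1 histone class are near-identical copies, so their probes may read one another's transcripts and are not independent.

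**Figure D3:**
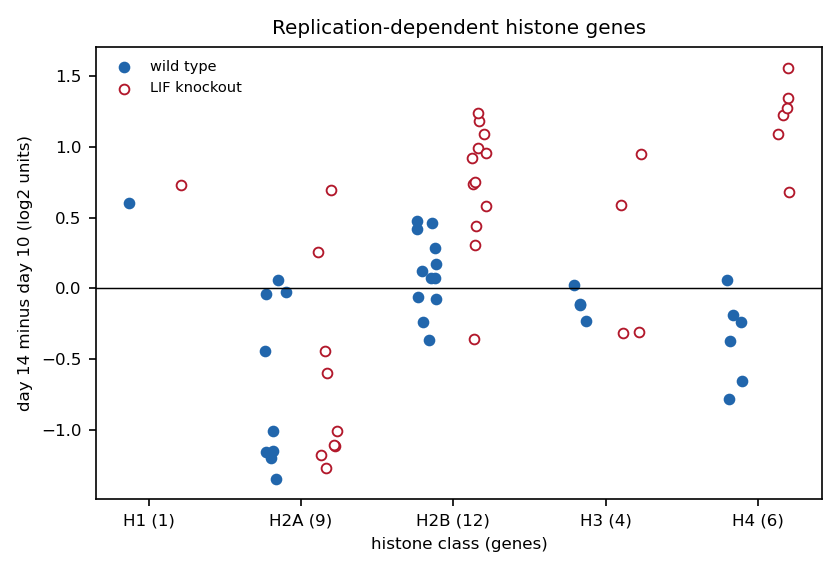
Difference of day 14 minus day 10 (log2 units, vertical axis) for replication-dependent histone genes by histone class (number of genes in brackets), in wild-type nerves (filled blue) and LIF-/- nerves (open red), 1 point per gene. A cluster of 5 H2A genes lies between -1.01 and -1.34 in the wild type and near -1 in LIF-/- nerves, while H4 genes lie near or below 0 in the wild type and above 0 in LIF-/- nerves.

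LIF signals through the gp130 receptor chain, Jak kinases and the transcription factor Stat3, whose targets include the inhibitor Socs3. Of 20 measured members of this pathway 9 lay above 0, with a median of -0.15 and 2 lower by at least 1 log2 unit. The Lif probe read 76.6 at day 14 and 75.4 at day 10 (difference 0.01), and in LIF-/- nerves, where it was detected too, 56 at day 14 and 88.2 at day 10. It therefore does not check the genotype, and its wild-type values cannot be read as a level of Lif transcript. The receptor chains split: Il6st, which encodes gp130, differed by 0.19, and Osmr, the oncostatin M receptor chain, by -0.84 (153.8 at day 14 against 248.1 at day 10). Stat3 had 1139.7 at day 14 and 1922.5 at day 10 (-0.77). Of its targets, Socs3 had 118.6 at day 14 and 293.8 at day 10 (-1.59), and Serpina3n, a secreted protease inhibitor of reactive astrocytes, had 772.7 at day 14 against 2731.3 at day 10 (-1.85). Timp1, a metalloproteinase inhibitor, differed by -0.97. In LIF-/- nerves the differences were 2.71 for Serpina3n, 1.20 for Osmr, 0.48 for Stat3 and 0.24 for Socs3. Immediate early genes, which cells switch on within minutes of a stimulus, had a median of -0.44 with 9 of 11 below 0, such as -0.83 for Fos and -0.44 for Egr1, and their part in these values was not tested.

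Astrocyte genes had a median of -0.03 over 22 measured members, with members at both ends. Glul, glutamine synthetase, had 1872.3 at day 14 against 864.6 at day 10 (difference 1.14), Aldoc, aldolase C, had 5559.9 at day 14 against 2653.6 at day 10 (1.12, and 1.60 on its second probe), and the metallothioneins Mt1 and Mt2 differed by 1.02 and 1.22. On the other side Ntsr2, a neurotensin receptor, had 250.1 at day 14 against 477.2 at day 10 (-1.03), and the water channel Aqp4 had 2934.1 at day 14 against 5068.2 at day 10 (-0.77). The intermediate filament genes Gfap and Vim differed by -0.55 and -0.52. Gfap had 3106.3 at day 35, on the other slide. The connexin Gja1 and the glutamate transporter Slc1a3 lay at -0.03 and -0.07.

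Microglia and macrophage genes lay mostly below 0, with 15 of 17 members there and a median of -0.39. Mrc1, the mannose receptor of perivascular macrophages, had 211.2 at day 14 and 460.5 at day 10 (difference -1.25), and Lyz2, lysozyme, had 140 at day 14 against 265.1 at day 10 (-1.12). The microglial genes C1qa, Aif1 and Cx3cr1 differed by -0.28, -0.56 and -0.39. Lgals3, galectin 3, was higher, with 654.2 at day 14 against 287.6 at day 10 (1.27). In LIF-/- nerves 14 of the 17 lay above 0, with a median of 0.48. Of 15 genes of interferon response and antigen presentation 11 lay below 0, with a median of -0.34. Bst2 and Tap2 lay lowest at -0.98 and -0.99, while the class II genes H2-Aa (215.4 at day 14 against 78.8 at day 10, difference 1.89) and H2-Ab1 (1027.6 at day 14 against 492.2 at day 10, 1.1, and 0.36 on its second probe) were higher. Cd74, the invariant chain that travels with class II, differed by -0.78.

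Vessel genes went 2 ways. Of 22 measured endothelial genes 16 lay above 0, with a median of 0.41, and 1 reached 1 log2 unit. Ly6c1, a surface antigen of endothelium and monocytes, had 760.7 at day 14 against 260.8 at day 10 (difference 1.65). Nos3, endothelial nitric oxide synthase, differed by 0.79 (0.28 on its second probe), the adhesion molecule Pecam1 by 0.76 (178.6 at day 14 against 115.1 at day 10), the angiopoietin receptor Tek by 0.70 and the glucose transporter Slc2a1 by 0.69. Cldn5, the claudin of the blood-brain barrier, had 1743.8 at day 14 against 1432.6 at day 10 (0.29), and Cdh5 lay at -0.01. In LIF-/- nerves the endothelial median was -0.50, with 4 of 21 above 0. Mural and smooth muscle genes had a median of -0.16 over 10 members, 5 of them above 0, and of 0.25 when undetected probes were kept, so the direction of the group is not settled. Acta2, smooth muscle actin (166.8 at day 14 against 60.1 at day 10, difference 2.13), Actg2 (1.67) and Myh11 (1.65) were higher. At day 10 Acta2 and Myh11 lay close to the lower limit of detection. With a detection p below 0.01, 1 of 8 measured members was higher by at least 1 log2 unit. The contractile genes Mylk (-0.43) and Tpm1 (-0.32) lay below 0. Of genes named for pericytes, Notch3 (-0.76), Vtn (-0.47) and Kcnj8 (-0.42) lay below 0 and Pdgfrb was at 0.00. Tpm2, a tropomyosin, differed by 0.78 on its brighter probe and by -1.39 on its second.

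Connective tissue genes lay mostly below 0. Of 22 measured fibroblast and meningeal genes 19 lay below 0, with a median of -0.51. Col1a2 and Col1a1, the chains of type I collagen, had 269.1 at day 14 against 579 at day 10 (difference -1.20) and 1009.7 at day 14 against 1822.4 at day 10 (-0.87). Slc6a13, a transporter of the meninges, had 2146.1 at day 14 against 4003.4 at day 10 (-0.92), and Col3a1 differed by -0.50. Mgp, matrix Gla protein, was the highest member at 0.76. Genes of matrix and basement membrane were wider spread, with a median of -0.19 over 31 members and 12 above 0. Col16a1 had 851.1 at day 14 and 2165.2 at day 10 (-1.40), and Loxl1, which crosslinks elastin, and Mmp2, a gelatinase, differed by -1.09 and -1.01. Sparc, a secreted protein that binds collagen, was the highest, with 3307.9 at day 14 against 614.1 at day 10 (2.50), and Timp4 differed by 1.17.

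Transcripts named for neurons can reach a nerve sample within axons or from cells that share them. Of 16 measured members 10 lay above 0, with a median of 0.07. Nefh, the heavy neurofilament chain, had 214.6 at day 14 and 86.5 at day 10 (difference 1.68), and Calb2, calretinin, differed by 0.81. Gap43, a growth cone protein, had 1055.5 at day 14 against 1824.6 at day 10 (-0.80). Of 11 measured genes that respond to thyroid hormone or glucocorticoid 10 lay above 0, with a median of 0.41, and 2 were higher by at least 1 log2 unit. Without background correction, with an offset of 50 or in the authors' scaled values, 0 of the 11 were. Pdk4, a kinase that restrains pyruvate use, had 207.1 at day 14 against 111.3 at day 10 (1.08), Cdkn1a, the cell cycle inhibitor p21, had 406.1 at day 14 against 213.1 at day 10 (1.02, and 0.60 on its second probe), and Fkbp5 and Per1 differed by 0.95 and 0.91.

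Housekeeping groups moved little. Cytosolic ribosomal protein genes had a median of -0.19 over 41 members with 8 above 0, respiratory chain genes -0.04 over 65 with 27 above 0, proteasome subunit genes -0.06 over 34 with 13 above 0, and glycolysis and lactate genes -0.07 over 14 with 6 above 0. Single members stood apart from their groups. Psmc1 and Psmd8, subunits of the proteasome cap, differed by 2.68 and 1.49. The respiratory chain members at the low end, Cox6a2 (-1.59) and Cox8b (-0.91), are isoforms of striated muscle.

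Genes of tissues other than the nerve were detected and differed between the pools. All 13 measured skeletal muscle genes lay below 0, with a median of -1.50 and 8 lower by at least 1 log2 unit, and another 7 were detected at day 10 alone. Their summed signal was 2240.6 at day 14 and 5898.4 at day 10. Acta1, skeletal actin, had 339 at day 14 against 1426.2 at day 10 (difference -2.16), and Tnni2, a fast troponin, had 239.6 at day 14 against 825.2 at day 10 (-1.93). All 5 red cell genes lay below 0, with a median of -1.11 and a summed signal of 6233.9 at day 14 against 13178.4 at day 10, led by the globins Hbb-bt (-1.64) and Hba-a1 (-1.11), which have near-identical copies. The pigment cell genes Tyrp1, Dct and Pmel, listed with retina and lens, differed by -1.88, -1.28 (-1.15 on the second Dct probe) and -1.10, while that list as a whole had a median of -0.06 over 9 members. Fat tissue genes had a median of -0.35 over 6 members and 2 above 0, with Car3, also a muscle enzyme, at -2.31. Pituitary and neuroendocrine genes had a median of -0.15 over 9 members, 4 above 0, with Cartpt at 3.21. Of 3 measured Schwann cell genes 2 lay above 0 (median 0.33, shared with myelin through Pmp22), with Gldn below. The part of these tissues in the differences given for vessel, connective tissue and metabolic genes was not tested.

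The Y-linked genes Eif2s3y and Kdm5d were measured as a check of the male label. Eif2s3y had 701.5 at day 14 and 55.4, at background, at day 10, and Kdm5d had 168.5 at day 14 and 97.2 at day 10, detected at both ages (difference 0.99). The Eif2s3y value of the day 10 array goes against its male label and the Kdm5d value does not, so the pool is called by its label. At day 35 Eif2s3y read 72.3, and in LIF-/- nerves 523.7 at day 14 and 396.4 at day 10. In LIF-/- nerves at day 35 both Eif2s3y (39.5) and Kdm5d (37.5) were at background, which goes against the male label of that array. What sets apart the Eif2s3y value of the wild-type day 10 array, or the values of the LIF-/- day 35 array, was not tested.

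Over all named genes, in the groups or not, the 15 with the highest differences ranged between 1.81 and 3.60 log2 units. This ranking took the most extreme detected probe of each gene and not its brightest. Prdx2, a peroxiredoxin, had 531.3 at day 14 and 70.9 at day 10 (3.60, and 1.79 on its second probe). Csrp1, a LIM domain protein that binds actin, had 4951.3 at day 14 against 461.2 at day 10 (3.50). Cartpt, the precursor of a neuropeptide, had 861.4 at day 14 against 116.7 at day 10 (3.21), and Mgst1, a microsomal glutathione transferase, had 779.7 at day 14 against 111.4 at day 10 (3.17). Psmc1 and Sparc followed at 2.68 and 2.50. The others were Mink1, a kinase (2.44), Pdrg1 (2.32), Acta2 (2.13), Hs3st3a1, a heparan sulfate sulfotransferase (2.08), Fgf1, an acidic fibroblast growth factor (2.06), Rusc2 (2.03), the kinase Ripk4 (1.90), H2-Aa (1.89) and the kinase Tesk1 (1.81). Of these 15 genes 8 had a day 10 level under 6 log2 units, close to the lower limit of detection, and 5 belonged to a list.

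At the other end of the same ranking 15 genes ranged between -1.88 and -3.20. Fbxw5, an F-box protein of a ubiquitin ligase, had 105.6 at day 14 and 731.7 at day 10 (-3.20). Ccl21b, a chemokine of lymphoid tissue with near-identical copies, had 74.7 at day 14 against 351.3 at day 10 (-2.86). Prss35, a serine protease-like protein, had 162.3 at day 14 against 754.5 at day 10 (-2.45), and Col26a1, a collagen, had 319.8 at day 14 against 1366.2 at day 10 (-2.18). Acta1, Pvalb (-2.17) and Tnni2 belong to the skeletal muscle list, while Car3, Gldn and Tyrp1 belong to other lists. The remaining genes were H2-T10 (-2.21) and H2-T22 (-2.06), similar nonclassical class I genes, the macrophage lectins Clec10a (-2.08) and Mgl2 (-2.0, and -0.82 on its second probe), and Wnt6 (-1.88), a Wnt ligand.

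Some genes crossed the limit of detection. The largest bounds among genes detected at day 14 alone were those of Sspn, sarcospan of the dystrophin complex, with 1233.2 at day 14 and 37.4 at day 10 (at least 44.8-fold higher), and of Eif2s3y (at least 24.4-fold). Etnppl, a phospholyase that astrocytes express, had 294.4 at day 14 against 56.3 at day 10 (at least 9.36-fold), H2-D1, a class I gene, was at least 7.23-fold higher, and Smarcc1, a chromatin remodeller, at least 3.78-fold higher, although its second probe differed by only 0.42. In LIF-/- nerves Sspn read 855 at day 14 and 871.9 at day 10, while Etnppl and H2-D1 were detected at day 14 alone there too. Among genes detected at day 10 alone, Ttr, transthyretin of choroid plexus and retinal pigment epithelium, had 56.4 at day 14 and 312.9 at day 10 (at least 10.2-fold lower). A second Ccl21b probe was at least 7.84-fold, Ccl21a at least 6.87-fold, and the muscle genes Myh2 and Ckm at least 6.49-fold and 3.71-fold lower.

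The LIF-/- arrays of the same ages and slide give a separate step, with no array in common. Among 6105 genes detected on all 4 arrays, 3.39% were higher and 3.01% lower by at least 1 log2 unit at day 14 in LIF-/- nerves, and 49.7% lay above 0 and 50.2% below it. Of 99 such genes that were higher in the wild type, 64 had the same sign in LIF-/- nerves, 23 of them past 1 log2 unit, and 6 passed it in the opposite direction. Of 110 that were lower, 74 had the same sign, 37 of them past 1 log2 unit, and 3 passed it in the opposite direction. All these genes were chosen by their wild-type day 10 and day 14 values. An error in either value alone would place many LIF-/- levels nearer the other wild-type age. No share over the 6105 genes was computed, so the counts that follow cannot be read as a difference in timing between genotypes. The LIF-/- day 10 level lay closer to the wild-type day 14 than day 10 level in 47 of 99 and 50 of 110. The LIF-/- day 14 level lay closer to the wild-type day 10 than day 14 level in 31 and 37. Csrp1 is an example of the first kind, with 4951.3 at day 14 and 461.2 at day 10 in the wild type, and 4218.3 at day 14 and 2844.7 at day 10 in LIF-/- nerves. Rusc2 is another, with 709 at day 14 and 195.6 at day 10 in the wild type, and 722.9 at day 14 and 708.1 at day 10 in LIF-/- nerves.

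The 15 highest and 15 lowest genes differed in how far they were shared. Of the highest, 14 were detected on all 4 arrays, 9 of these had the same sign in LIF-/- nerves and 3 (Mgst1, Psmc1 and Fgf1) also passed 1 log2 unit, at 1.82, 2.45 and 1.01. Of the lowest, 12 were detected on all 4, 10 had the same sign and 4 passed 1 log2 unit. The median of the myelin sheath genes was 0.33 in wild-type and 0.63 in LIF-/- nerves, that of mature oligodendrocyte genes 0.52 in wild-type and 1.58 in LIF-/- nerves, and that of node and paranode genes 0.70 in wild-type and 0.82 in LIF-/- nerves. For sterol synthesis it was 0.12 in wild-type and 0.66 in LIF-/- nerves. For mitosis it was -0.82 in wild-type and -1.11 in LIF-/- nerves, and for DNA replication -0.33 in wild-type and -0.60 in LIF-/- nerves. These 6 groups had the same sign in both genotypes. So did further groups, among them skeletal muscle, red cell, and fibroblast and meningeal genes. Other groups had opposite signs. The median was -0.39 in wild-type and 0.48 in LIF-/- nerves for microglia and macrophage genes, and -0.34 in wild-type and 0.46 in LIF-/- nerves for interferon and antigen presentation genes. It was -0.15 in wild-type and 0.34 in LIF-/- nerves for the LIF receptor and Stat3 pathway, and 0.41 in wild-type and -0.50 in LIF-/- nerves for endothelial genes. Whether the steps of the 2 genotypes differ was not tested.

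**Figure D4:**
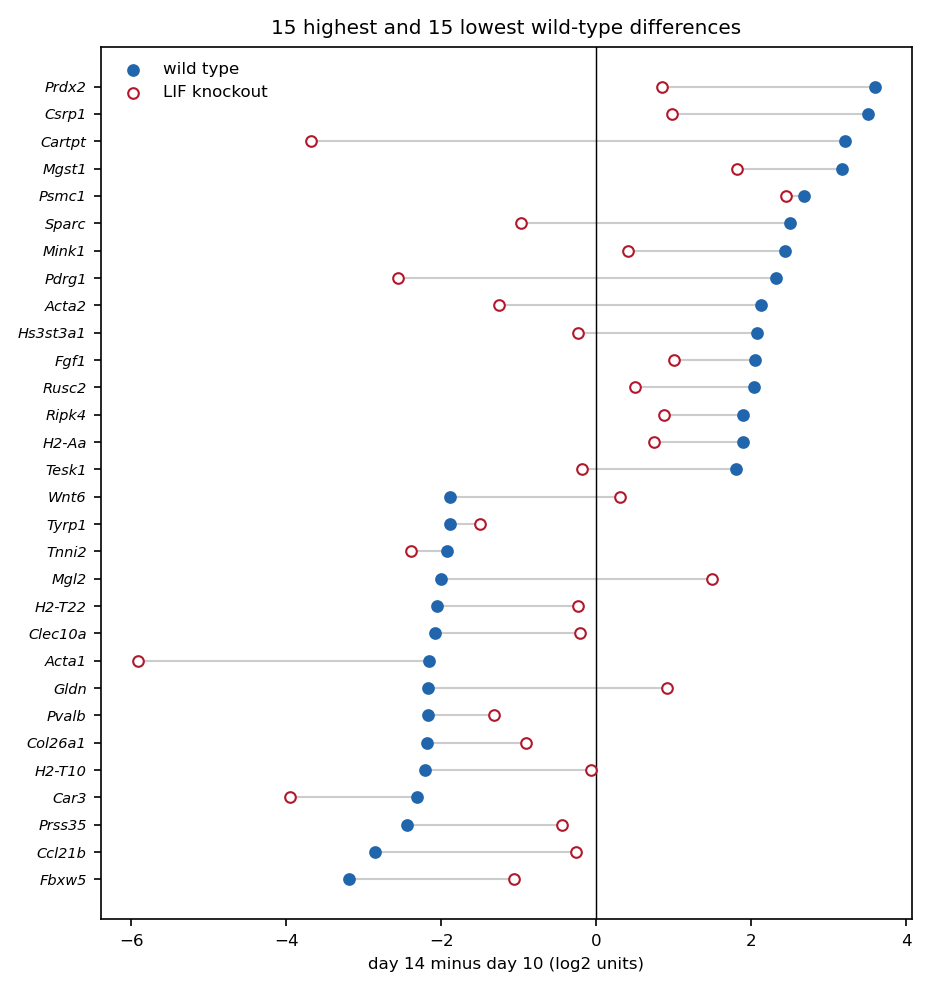
Difference of day 14 minus day 10 (log2 units, horizontal axis) for the 15 highest and 15 lowest named genes of the wild-type step, in wild-type nerves (filled blue) and LIF-/- nerves (open red), joined by a line. Mgst1 and Psmc1 are high in both genotypes, while Cartpt is 3.21 in the wild type and -3.69 in LIF-/- nerves, and Acta1 is -2.16 in the wild type and -5.91 in LIF-/- nerves; LIF-/- values at background are drawn at their measured level.

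The wild-type array of day 35 is set beside the other ages, with the caveat that it lay on another slide. The genes counted here were chosen by their day 10 and day 14 values. An error in either value alone would place many day 35 levels on the day 14 side of day 10 and short of day 14. No share over all genes was computed, so the counts do not show which differences lasted. Of 100 genes that were higher at day 14 by at least 1 log2 unit and detected at day 35, 78 were above their day 10 level and 31 were above their day 14 level. In 37 the day 35 level was less than 0.5 log2 units above day 10 or was not above it. Of 106 lower genes detected at day 35, 96 were below their day 10 level and 27 were below day 14. In 36 the day 35 level was less than 0.5 log2 units below day 10 or was not below it. Fgf1 had 73.7, 216.1 and 1017.2 at days 10, 14 and 35 and Col26a1 had 1366.2, 319.8 and 140.4, courses in 1 direction. Sspn had 37.4, 1233.2 and 44.9, and Prdx2 had 70.9, 531.3 and 43.9, with both outer ages of Sspn and the last of Prdx2 at background. Mitosis genes went further down, with a median of -0.78 for day 35 minus day 14, endothelial genes turned to -0.59, and microglia and macrophage genes to 1.17.

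**Figure D5:**
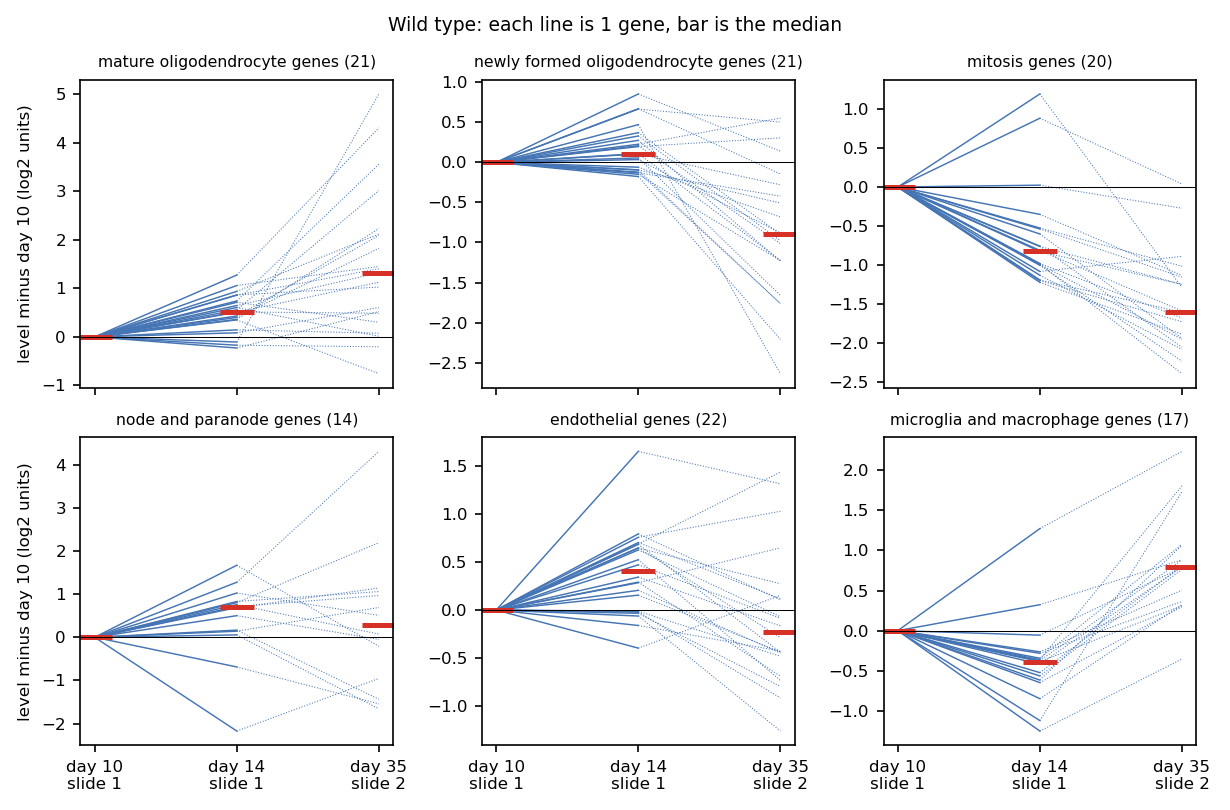
Level minus day 10 level (log2 units, vertical axis) at days 10, 14 and 35 in wild-type nerves for 6 gene groups (number of genes in brackets), 1 line per gene, dotted between slides, and a red bar at the median; day 35 values at background are drawn at their measured level. In median, mature oligodendrocyte genes are higher and mitosis genes lower at each later age, and newly formed oligodendrocyte and endothelial genes are above 0 at day 14 and below it at day 35.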

How the data were processed

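RNA of pooled optic nerves was measured on 6 arrays, 1 per genotype and age. Per the file headers, the deposited per-array files hold bead intensity on a linear scale, exported by the authors from BeadStudio 1.5.0.34 without normalization. The deposited detection score is a fraction between 0 and 1, and 1 minus this score was taken as the detection p-value. The series table that the authors deposited contains these intensities after scaling by an array-specific factor, and 15646 of its 24613 probes are blank for reasons the labels and headers do not state.

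Gene names are absent from the per-array files. Each of the table's probes, which a platform annotation pairs with genes, was linked to the file row whose intensities matched within 0.06 units after the array factors were divided out. Of 8934 linked probes 8047 had 1 gene symbol (6656 genes) and 887 none. The gene number inside the design identifier equalled that of the linked gene in 97.1% of 3182 probes that carry one. Probes without a link were counted and not named, and some genes of the lists were not analysed here. No coordinates of probes are given, since neither labels nor headers name the build of the array design.

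With limma 3.58.1 in R 4.3.3, the deposited intensities were corrected for background (normexp, negative distribution from detection p-values, offset 16), quantile normalized over the 6 arrays and taken to log2. Tables were made with pandas 2.3.3 in Python 3.11.15. A gene took its brightest probe detected at both ages. A probe detected at 1 age has a bound against the higher of its own level and the lowest level of a detected probe on the dim array. No test was run. On simulated data, the recovery of known changes, the count of unchanged probes past 1 log2 unit and the linking by value were checked. The ranking and the group counts and medians were not.

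Genes to name were drawn from the 15 highest and 15 lowest, 5 bounds each way, the 4 members with the largest difference of each list, and a set of markers; a few further members were named after their values were seen. The comparison, the 36 lists (928 genes) and the markers were chosen with earlier results of these data known. Alternatives were other between-array scalings, no background correction, an offset of 50, the authors' scaled values, other detection filters and the mean over probes. The number of arrays, 1 per group, limits the precision.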

Additional observations from a re-analysis of the deposited data

Results flagged for a closer look

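Of 177 genes named by the rule and detected on all 4 arrays of days 10 and 14, 6 differed by at least 1 log2 unit between the ages in opposite directions in the 2 genotypes, each with 1 array per group. Many of the 177 were named for a large wild-type difference, which favours such a count. Over the 6105 genes detected on all 4 arrays, 1 probe each, 6 that were higher and 3 that were lower in the wild type did so. The difference between genotypes was not tested. Cartpt, the precursor of a neuropeptide, was 3.21 in the wild type and -3.69 in LIF-/- nerves. Pdrg1, a prefoldin-like protein, was 2.32 in the wild type and -2.56 in LIF-/- nerves. Actg2, the enteric smooth muscle actin, was 1.67 in the wild type and -1.24 in LIF-/- nerves. Cntnap2, an axonal adhesion protein, was 1.67 in the wild type and -1.68 in LIF-/- nerves, and Spag5, a spindle protein, was 1.19 in the wild type and -1.10 in LIF-/- nerves. Serpina3n, a protease inhibitor of reactive astrocytes, was -1.85 in the wild type and 2.71 in LIF-/- nerves.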

How the results depend on the processing

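Of the 11677 probes detected at both ages, 165 were higher and 161 lower by at least 1 log2 unit. Without background correction they were 99 and 91, and with an offset of 50 they were 87 and 85. The authors' scaled values covered only 8005 of these probes, with a median difference of -0.20. Of these 8005, 40 were higher and 135 lower, so that 22.9% of the calls were higher against 50.6%. The group medians there were 0.12 for the myelin sheath, 0.30 for mature oligodendrocytes and -0.087 for sterol synthesis. With that shift taken out, an alternative chosen after seeing the data, 83 were higher and 79 lower. Another added later, unnormalized values less their median difference, gave 170 and 161. The other scalings and detection filters kept both counts within 1.5 times, between 133 and 209 higher and between 114 and 212 lower. The filters also changed the number of probes, to 9378 at a detection p below 0.01 and to 24606 with no filter. Over all alternatives, 364 group medians moved by less than 0.2 log2 units and 20 by more, and no called value changed sign. Of 2077 values of single genes 274 moved by at least 0.2 log2 units, and so did 178 of the 864 values of genes past 1 log2 unit. Of 80 named genes past 1 log2 unit 54 stayed past it in every alternative run for them and 26 did not. At their smallest, Hapln2 was 0.72, Kcna1 0.60, Mog 0.94, Cdk1 -0.71, Plk1 -0.86, Mest -0.72 and Fabp7 -0.59. The count of mitosis genes lower by at least 1 log2 unit ran between 1 and 9, that of imprinted and fetal growth genes between 1 and 4, and that of skeletal muscle genes between 6 and 13. The mural median was -0.16, but 0.25 with no detection filter and -0.37 at a detection p below 0.01, and its direction is not settled. No paired analysis was possible because each group has 1 array and the labels carry no replicate numbers, and for the same reason no replicate could be left out.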
